A study of Mus musculus with 16 samples.

Results

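The 7 genes described here encode the enzymes that make, split and exchange glutamine, glutamate, alanine and aspartate in liver cells: Glul, Gls2, Glud1, Got1, Got2, Gpt and Gpt2. They were taken by name from a table of 54532 mouse genes measured by RNA sequencing in 16 libraries, and were not picked by a threshold on any measured value. The choice was made with earlier results of these data known. Every library is labelled as mouse hepatocytes, and the 5 groups differ in what the hepatocytes were cultured with. In 4 libraries they shared the culture with Phgdh knockout (KO) cancer cells in the presence of a CXCR2 inhibitor, and in 3 with Phgdh wild-type (WT) cancer cells and that inhibitor. In 3 libraries they were with KO cells and in 3 with WT cells, both without the inhibitor, and in 3 they were cultured alone. The product of Phgdh starts serine synthesis from glucose, and CXCR2 is a receptor for neutrophil-attracting chemokines. The study's title names pancreatic cancer and exogenous serine, and its design text names the cancer cells as HY19636. That text speaks of cancer cells as the sequenced material, so it conflicts with the sample labels, which were followed here. The sources used here do not state dose, duration, vehicle, the number of KO clones, the mouse strain or whether the cells were in contact. Hepatocytes with the inhibitor but no cancer cells were not analysed here.

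Glutamine synthetase joins ammonia to glutamate, and glutaminase takes that ammonia off again. Glutamate dehydrogenase releases or fixes ammonia at glutamate itself, and the aminotransferases pass its amino group between aspartate, alanine and their keto acids. In the intact liver these steps are zoned: glutaminase lies around the portal vein beside the urea cycle, and glutamine synthetase lies in the cells next to the central vein, where it scavenges the ammonia that escaped. Aspartate and alanine aminotransferase each exist as a cytosolic and a mitochondrial enzyme encoded by separate genes, and they are the enzymes measured in blood as AST and ALT.

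Values are FPKM, fragments per kilobase of gene length per M fragments, as deposited by the authors. Recovered whole fragments numbered 15.002 to 21.27 M per library, and 1 fragment in a gene of 1 kb was worth 0.0457 to 0.0648 FPKM. WT co-culture replicate 1 stood apart from its mates, with a chi-square per degree of freedom of 19.8 and 23.5 against them, where all other replicate pairs lay between 2.64 and 9.31. Of 13 hepatocyte markers, 12 had an entry by name, expressed or not, and 9 were tested, with Alb at group means of 24.3 to 461 FPKM. In hepatocytes alone Ttr averaged 87.7 FPKM and Apob 47.8 FPKM, but Apoa1 3.12, Cps1 0.210, Apoc3 0.115 and Cyp3a11 0.0657 FPKM. Cps1 and Cyp3a11 passed the filter through the groups with the inhibitor. Asgr1 and Cyp2e1 did not pass 0.232 and 0.330 FPKM in any library. Cholangiocyte markers were present in every group, among them Spp1 at group means of 258 to 1016 FPKM. The stellate, endothelial and neutrophil lists each summed to at most 0.422 FPKM per library, and of the 6 macrophage genes Adgre1, Clec4f and Timd4 were listed at 0 throughout. Cd68, the 1 of them tested, averaged 4.28 FPKM in KO and 4.96 FPKM in WT co-cultures with the inhibitor, 1.03 FPKM in KO and 1.34 FPKM in WT co-cultures without it, and 0.690 FPKM in hepatocytes alone. Phgdh itself stood at 146 to 207 FPKM in all 16 libraries, which checks nothing about the cancer cells if the RNA came from hepatocytes. In such bulk RNA, fewer cells of a type and less RNA per cell cannot be told apart. The labels do not tell whether the replicates are different cultures, and all p-values refer to the spread between libraries, which may be technical.

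All 7 genes passed the filter of a mean of 1 FPKM over the 16 libraries, which left 11395 genes for testing. Glud1 was the most abundant of the 7, at rank 281 of the genes tested by mean FPKM, followed by Got1 at 627 and Glul at 695. Got2 and Gpt2 stood at 1914 and 1932, Gpt at 6478 and Gls2 at 10318. Gls2 had only 38 to 53 fragments in each co-culture library without the inhibitor and 96 to 193 in each of the others, so its values carry the widest counting error. It passed the filter through the groups in which it was higher, since it lay under 1 FPKM in all 6 co-culture libraries without the inhibitor.

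**Figure D1:**
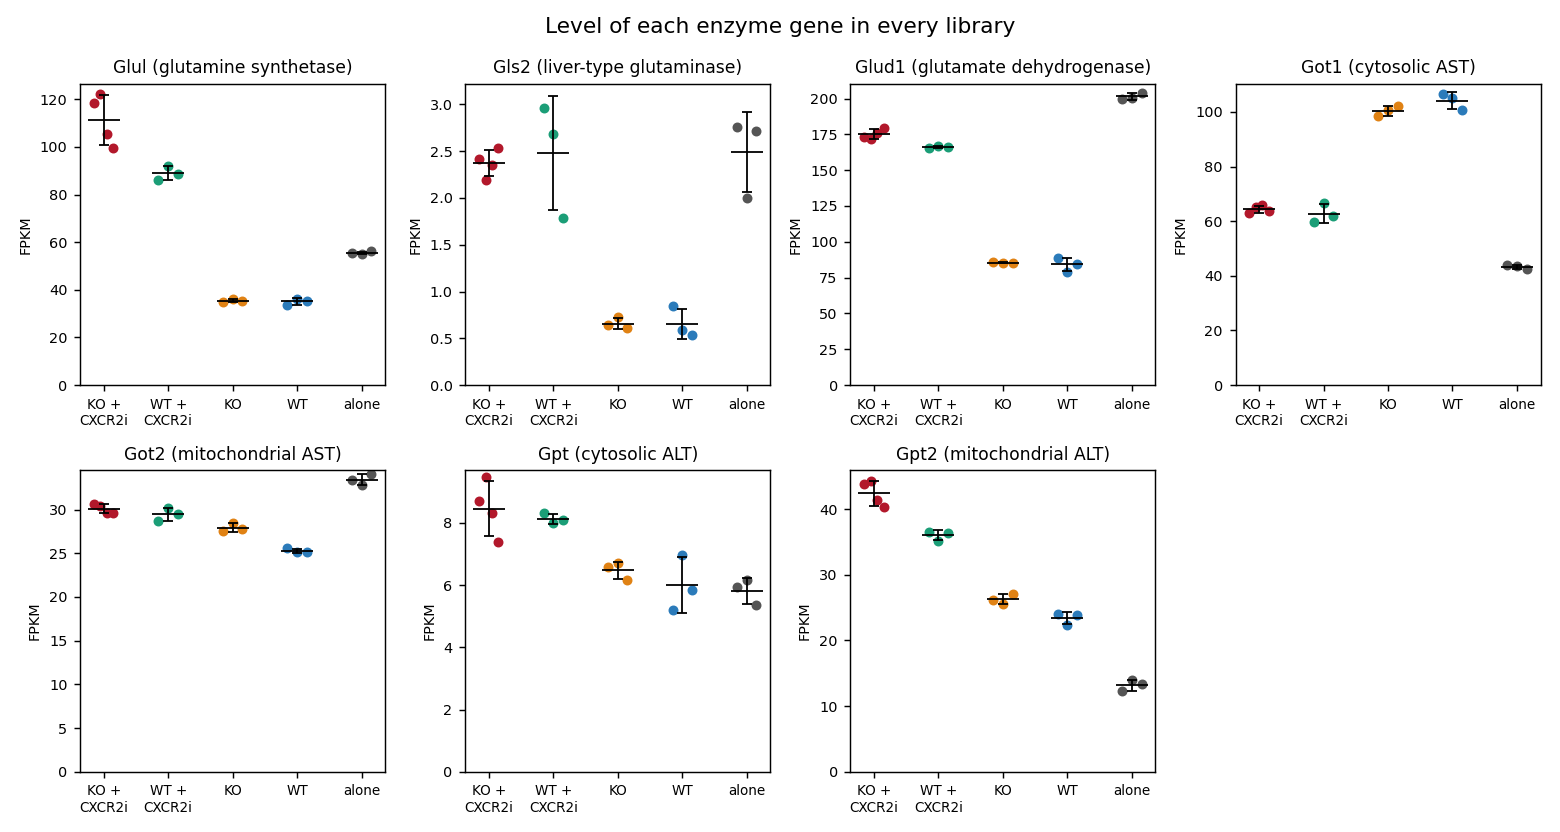
Level of each of the 7 genes in FPKM (y axis, from 0) in every library, with the groups along the x axis; points are libraries, and the lines are the group mean ± SD (n = 4 for KO + CXCR2i, n = 3 for each other group). Glul, Gls2 and Glud1 are low in the KO and WT co-cultures, Got1 is high there, and Gpt2 is lowest in hepatocytes alone, at 12.3 to 13.96 FPKM.

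In co-culture with cancer cells, the genes of glutamine and glutamate turnover were lower and 1 aspartate and 1 alanine aminotransferase were higher. Glul, Gls2, Glud1 and Got2 fell and Got1 and Gpt2 rose with either cancer cell genotype, and Gpt did not pass the test. That is 6 of 7 genes called at an adjusted p of at most 0.05 in each comparison with hepatocytes alone, by limma with p-values adjusted after Benjamini and Hochberg across the 11395 genes. Of all genes tested, 61.5% were called for KO co-cultures (30.3% higher and 31.2% lower) and 62.0% for WT co-cultures (30.1% higher and 31.9% lower), so the count itself is not far from the background. The median absolute log2 fold change of the 7 was 0.94 for KO and 0.78 for WT co-cultures, beside 0.28 and 0.29 over all genes tested. Since the 7 were chosen with earlier results of these data known, this contrast describes them and is no test. Both comparisons use the same 3 libraries of hepatocytes alone and are therefore not independent. Cell type markers moved with co-culture too. The 8 cholangiocyte markers, of which 6 were tested, summed to 431 to 451 FPKM in KO and 413 to 436 FPKM in WT co-cultures, against 1230 to 1251 FPKM in hepatocytes alone, and the hepatocyte markers were also lower, as given below. Their part in the changes of the 7 genes was not tested.

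Glul, glutamine synthetase (ENSMUSG00000026473, chr1:153899944-153909723, plus strand, GRCm38), had 34.9, 36.0 and 35.5 FPKM in KO co-cultures. It had 33.7, 36.3 and 35.3 FPKM in WT co-cultures, against 55.3, 54.9 and 56.2 FPKM in hepatocytes alone. All 6 co-culture libraries lay below all 3 libraries of hepatocytes alone, and the KO and WT co-cultures overlapped. The log2 fold change against hepatocytes alone was -0.63 ± 0.06 (SE) with KO cells (limma, adjusted p = 5.17e-07) and -0.65 ± 0.06 with WT cells (adjusted p = 3.88e-07). Fold changes here and below are of FPKM + 1, which understates those of low genes.

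Gls2, the liver-type mitochondrial glutaminase (ENSMUSG00000044005, chr10:128194457-128210004, plus strand), had 0.638, 0.723 and 0.606 FPKM in KO co-cultures. It had 0.840, 0.592 and 0.536 FPKM in WT co-cultures, against 2.76, 2.00 and 2.72 FPKM in hepatocytes alone. Again the co-cultures lay wholly below hepatocytes alone and overlapped each other. Mean FPKM was 26.3% of that in hepatocytes alone with either genotype, and the log2 fold changes were -1.07 ± 0.12 with KO cells (limma, adjusted p = 2.71e-06) and -1.07 ± 0.12 with WT cells (adjusted p = 2.56e-06). The 3′ end of Gls2 overlaps Spryd4 on the opposite strand by 97 bases. Spryd4 averaged 12.1 FPKM in KO co-cultures, 11.4 FPKM in WT co-cultures and 9.38 FPKM in hepatocytes alone, and whether counting used strand is not given in the sources used here.

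Glud1, the mitochondrial glutamate dehydrogenase (ENSMUSG00000021794, chr14:34310727-34345265, plus strand), had 85.6, 85.5 and 85.5 FPKM in KO co-cultures. It had 88.5, 79.2 and 84.8 FPKM in WT co-cultures, against 199.98, 200.5 and 204 FPKM in hepatocytes alone. The gap between the groups was many times the spread within any of them. Its log2 fold change was -1.23 ± 0.04 with KO cells (limma, adjusted p = 8.38e-13) and -1.25 ± 0.04 with WT cells (adjusted p = 6.23e-13). A pseudogene that can share its reads, Glud-ps, reached at most 5.34 FPKM in any library.

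Got1, the cytosolic aspartate aminotransferase (ENSMUSG00000025190, chr19:43499752-43524605, minus strand), went the opposite way to Glud1. It had 98.5, 101 and 102 FPKM in KO co-cultures and 107, 105 and 101 FPKM in WT co-cultures, against 43.8, 43.6 and 42.4 FPKM in hepatocytes alone. Every co-culture library stood above every library of hepatocytes alone. Mean FPKM was 2.32-fold higher with KO cells (log2 fold change 1.20 ± 0.04; limma, adjusted p = 3.03e-12) and 2.41-fold higher with WT cells (1.25 ± 0.04; adjusted p = 1.83e-12). Got2, the mitochondrial aspartate aminotransferase (ENSMUSG00000031672, chr8:95864134-95888547, minus strand), was lower in co-culture than in hepatocytes alone, by a smaller step. It had 27.5, 28.5 and 27.8 FPKM in KO co-cultures and 25.6, 25.2 and 25.1 FPKM in WT co-cultures, against 33.4, 32.8 and 34.0 FPKM in hepatocytes alone. The 3 groups did not overlap, and the log2 fold changes were -0.25 ± 0.03 with KO cells (adjusted p = 6.87e-06) and -0.39 ± 0.03 with WT cells (limma, adjusted p = 5.63e-08).

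Gpt2, the mitochondrial alanine aminotransferase (ENSMUSG00000031700, chr8:85492576-85527560, plus strand), had 26.2, 25.6 and 27.1 FPKM in KO co-cultures. It had 24.0, 22.3 and 23.9 FPKM in WT co-cultures, against 12.3, 13.96 and 13.3 FPKM in hepatocytes alone. Both co-cultures lay wholly above hepatocytes alone, with log2 fold changes of 0.94 ± 0.05 with KO cells (limma, adjusted p = 4.19e-10) and 0.78 ± 0.05 with WT cells (adjusted p = 3.50e-09). Gpt, the cytosolic alanine aminotransferase (ENSMUSG00000022546, chr15:76695716-76699686, plus strand), had 6.57, 6.70 and 6.17 FPKM in KO co-cultures and 5.22, 6.98 and 5.84 FPKM in WT co-cultures. In hepatocytes alone it had 5.93, 6.16 and 5.35 FPKM, within the range of the WT co-cultures. Its log2 fold change was 0.14 ± 0.09 with KO cells (limma, adjusted p = 0.199) and 0.03 ± 0.09 with WT cells (adjusted p = 0.748).

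The upstream sequences of Got1 and Gpt2, which were higher in co-culture, and of Glul and Glud1, which were lower there, are shown to set their motif content side by side. They are the 250 bases before the RefSeq start of each gene on its own strand, from RefSeq on GRCm38.p6, and 5 of the 7 genes had an entry. Capitals mark matches on either strand to TGATGNAA, the core of the amino acid response element bound by ATF4 with C/EBP partners, to CCAAT and to GGGCGG, the letters of a GC box.
Got1 (chr19:43524606-43524855, minus strand): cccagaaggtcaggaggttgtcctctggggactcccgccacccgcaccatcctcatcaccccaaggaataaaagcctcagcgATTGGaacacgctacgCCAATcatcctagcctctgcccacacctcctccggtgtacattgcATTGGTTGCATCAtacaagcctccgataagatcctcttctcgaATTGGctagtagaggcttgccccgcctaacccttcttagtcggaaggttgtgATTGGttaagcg
Gpt2 (chr8:85492326-85492575, plus strand): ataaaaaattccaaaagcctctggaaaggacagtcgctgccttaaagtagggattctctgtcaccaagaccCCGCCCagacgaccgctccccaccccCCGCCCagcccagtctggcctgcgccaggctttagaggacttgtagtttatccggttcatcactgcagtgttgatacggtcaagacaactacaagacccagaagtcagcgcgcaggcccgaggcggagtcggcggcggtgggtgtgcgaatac
Glul (chr1:153899679-153899928, plus strand): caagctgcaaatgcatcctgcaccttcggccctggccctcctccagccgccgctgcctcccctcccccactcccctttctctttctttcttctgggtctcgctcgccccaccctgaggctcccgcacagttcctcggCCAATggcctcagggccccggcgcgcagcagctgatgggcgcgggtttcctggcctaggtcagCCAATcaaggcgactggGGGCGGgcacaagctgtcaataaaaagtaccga
Glud1 (chr14:34310477-34310726, plus strand): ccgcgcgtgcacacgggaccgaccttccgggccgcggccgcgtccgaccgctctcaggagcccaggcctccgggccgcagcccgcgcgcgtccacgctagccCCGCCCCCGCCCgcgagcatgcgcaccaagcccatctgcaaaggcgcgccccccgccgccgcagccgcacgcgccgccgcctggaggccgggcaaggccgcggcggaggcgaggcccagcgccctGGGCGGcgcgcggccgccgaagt

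Got1 held 1 match to TGATGNAA, read as TTGCATCA on the strand shown, at bases -102 to -95 from the start, and 5 matches to CCAAT, 1 of them directly before TTGCATCA. No 2 matches to different motifs overlapped. Gpt2 held 2 matches to GGGCGG, Glul held 2 to CCAAT and 1 to GGGCGG, and Glud1 held 3 to GGGCGG. Got2, which was lower in co-culture and is not printed, held 0 matches to each of the 3. Its window, chr8:95888402-95888651, overlaps the gene as measured, which reaches 95888547, so it is not wholly upstream of that gene. Of 32851 mouse promoters of the same length, 3.45% held TGATGNAA, 33.8% CCAAT and 32.7% GGGCGG. These are matches of letters and do not show that a factor bound there.

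With the CXCR2 inhibitor in the co-culture, all 7 genes changed. Glul, Gls2, Glud1, Got2, Gpt and Gpt2 rose and Got1 fell, with KO cells and with WT cells. All 7 of 7 were called in each comparison by limma, beside 69.5% of all genes tested with KO cells (34.8% higher and 34.7% lower) and 66.6% with WT cells (33.5% higher and 33.0% lower). The median absolute log2 fold change of the 7 was 0.67 with KO cells and 0.72 with WT cells, beside 0.33 and 0.32 over all genes tested. This contrast, too, is a description, as the 7 were chosen with earlier results known. The co-cultures without inhibitor also enter the comparison with hepatocytes alone, so these comparisons share libraries, and the levels with the inhibitor are given below against hepatocytes alone as well.

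Glul showed the widest shift on the scale of log2(FPKM + 1), while the ratio of mean FPKM was larger for Gls2. It had 118, 122, 106 and 99.7 FPKM in the 4 KO co-cultures with the inhibitor, against the 34.9 to 36.0 FPKM of KO co-cultures without it. In WT co-cultures it had 86.1, 92.1 and 88.9 FPKM with the inhibitor, against 33.7 to 36.3 FPKM without it. The libraries with and without inhibitor were far apart, and mean FPKM was 3.14-fold higher with KO cells (log2 fold change 1.62 ± 0.06; limma, adjusted p = 4.62e-12) and 2.54-fold higher with WT cells (1.32 ± 0.06; adjusted p = 1.12e-10). Glul ended above its level in hepatocytes alone: the log2 difference from hepatocytes alone was 0.99 ± 0.06 with KO cells and inhibitor (limma, adjusted p = 1.27e-09) and 0.67 ± 0.06 with WT cells and inhibitor (adjusted p = 2.36e-07).

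Gls2 and Glud1 came close to or stayed below hepatocytes alone. Gls2 had 2.42, 2.19, 2.35 and 2.53 FPKM in KO co-cultures with the inhibitor, against 0.606 to 0.723 FPKM without it. It had 2.96, 2.69 and 1.79 FPKM in WT co-cultures with the inhibitor, against 0.536 to 0.840 FPKM without it. Mean FPKM was 3.62-fold higher with KO cells and 3.78-fold higher with WT cells. Both differences were larger than the spread, with log2 fold changes of 1.03 ± 0.11 with KO cells (limma, adjusted p = 1.58e-06) and 1.06 ± 0.12 with WT cells (adjusted p = 2.58e-06). Against hepatocytes alone the log2 differences of Gls2 were -0.04 ± 0.11 (KO, adjusted p = 0.746) and -0.01 ± 0.12 (WT, limma, adjusted p = 0.924), and the libraries overlapped.

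Glud1 had 173, 171, 176 and 179 FPKM in KO co-cultures with the inhibitor, against 85.5 to 85.6 FPKM without it. In WT co-cultures it had 166, 167 and 166 FPKM with the inhibitor, against 79.2 to 88.5 FPKM without it. Its mean was 2.05-fold and 1.97-fold that of the co-cultures without inhibitor, with log2 fold changes of 1.02 ± 0.03 for KO (limma, adjusted p = 2.02e-12) and 0.97 ± 0.04 for WT (adjusted p = 8.97e-12). All 7 libraries with the inhibitor still lay below hepatocytes alone, at log2 differences of -0.20 ± 0.03 for KO (limma, adjusted p = 9.57e-05) and -0.28 ± 0.04 for WT (adjusted p = 9.34e-06). The KO difference did not keep its call under quantile normalization, at -0.04 (adjusted p = 0.453), or when scaling left out mitochondrial and the most abundant genes, at -0.10 (limma, adjusted p = 0.0534).

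**Figure D2:**
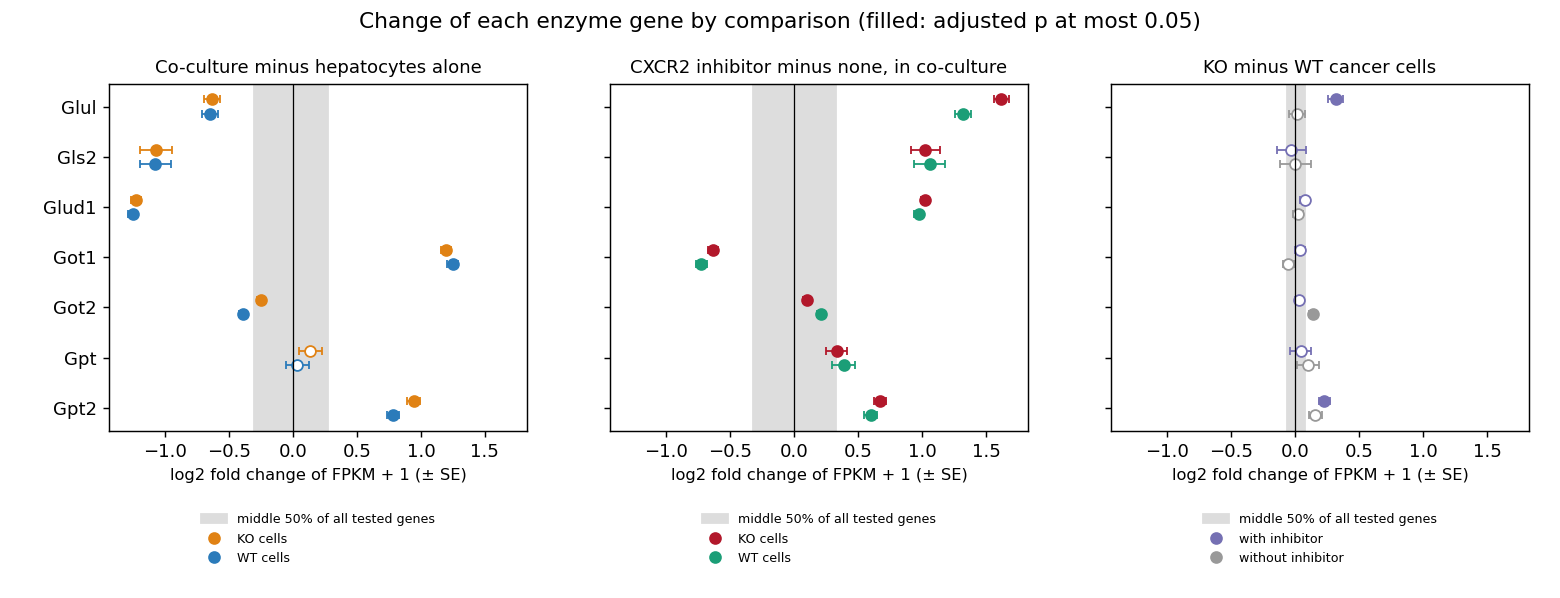
Log2 fold change of FPKM + 1 (x axis, ± SE from limma) of each gene (y axis) for co-culture minus hepatocytes alone, inhibitor minus none within co-culture, and KO minus WT cancer cells; filled points have an adjusted p of at most 0.05, and the grey band spans the middle 50% of all tested genes. For co-culture Glud1 stands farthest left and Got1 farthest right, for the inhibitor Glul stands farthest right, at 1.62 with KO cells, and for genotype Glul with the inhibitor stands farthest from 0, at 0.32.

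Got1 was the gene of the 7 that was lower with the inhibitor. It had 62.9, 65.3, 65.8 and 63.7 FPKM in KO co-cultures with the inhibitor, against 98.5 to 102 FPKM without it. It had 59.6, 66.7 and 62.0 FPKM in WT co-cultures with the inhibitor, against 101 to 107 FPKM without it. The log2 fold changes were -0.63 ± 0.04 for KO (limma, adjusted p = 1.37e-09) and -0.72 ± 0.04 for WT (adjusted p = 7.64e-10), yet Got1 stayed above hepatocytes alone by 0.56 ± 0.04 (KO, adjusted p = 5.88e-09) and 0.53 ± 0.04 (WT, limma, adjusted p = 3.18e-08). Got2 had 29.6 to 30.6 FPKM in KO co-cultures with the inhibitor against 27.5 to 28.5 FPKM without it, a log2 fold change of 0.10 ± 0.03 (limma, adjusted p = 0.00575). In WT co-cultures Got2 had 28.7 to 30.2 FPKM with the inhibitor against 25.1 to 25.6 FPKM without it, a log2 fold change of 0.21 ± 0.03 (limma, adjusted p = 2.88e-05). These steps of Got2 are small, at 1.08-fold and 1.17-fold.

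Gpt2 was higher in co-culture and, again, with the inhibitor. It had 43.8, 44.2, 41.3 and 40.3 FPKM in KO co-cultures with the inhibitor against 25.6 to 27.1 FPKM without it, a log2 fold change of 0.67 ± 0.05 (limma, adjusted p = 7.54e-09). In WT co-cultures it had 36.5, 35.1 and 36.4 FPKM with the inhibitor against 22.3 to 24.0 FPKM without it, a log2 fold change of 0.60 ± 0.05 (limma, adjusted p = 6.47e-08). Against hepatocytes alone, Gpt2 was 3.21-fold higher with KO cells and inhibitor (log2 1.61 ± 0.05; limma, adjusted p = 5.72e-13) and 2.73-fold higher with WT cells and inhibitor (1.38 ± 0.05; adjusted p = 8.35e-12). Gpt had 8.69, 9.47, 8.30 and 7.37 FPKM in KO co-cultures with the inhibitor against 6.17 to 6.70 FPKM without it, a log2 fold change of 0.33 ± 0.08 (limma, adjusted p = 0.00234). In WT co-cultures it had 8.32, 8.002 and 8.08 FPKM with the inhibitor against 5.22 to 6.98 FPKM without it, a log2 fold change of 0.39 ± 0.09 (limma, adjusted p = 0.00132). Neither pair of Gpt groups overlapped.

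Against hepatocytes alone, the co-cultures with the inhibitor had 4 genes higher (Glul, Got1, Gpt and Gpt2) and 2 lower (Glud1 and Got2), with Gls2 not called, for KO and for WT alike. The share of all genes tested that was called was 69.4% for KO (33.3% higher and 36.1% lower) and 66.8% for WT (32.1% higher and 34.7% lower). Of the WT calls 48.1% were higher, and 58.2% when scaling left out mitochondrial and the most abundant genes. Under that scaling Got2 lost its call in both, at a log2 difference of -0.05 for KO (adjusted p = 0.178) and -0.08 for WT (limma, adjusted p = 0.0615).

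Several whole-library measures moved with the inhibitor. The hepatocyte markers summed to 956 to 1010 FPKM in KO co-cultures with the inhibitor and 735 to 748 FPKM in WT co-cultures with it, against 148 to 152 FPKM in KO co-cultures, 125 to 130 FPKM in WT co-cultures and 250 to 256 FPKM in hepatocytes alone. The share of fragments from mitochondrial genes was 1.86 to 2.11% with the inhibitor and 3.25 to 4.57% in co-cultures without it. The 14 pancreatic cancer epithelium markers, of which 5 were tested, summed to 630 to 723 FPKM with the inhibitor, 210 to 248 FPKM in co-cultures without it and 331 to 342 FPKM in hepatocytes alone. Most of that sum was Msln, Krt19 and Krt20, which hepatocytes alone also held, while Tff1 and Agr2 were listed at 0 everywhere and Epcam did not pass 0.207 FPKM. The cholangiocyte markers summed to 561 to 609 FPKM in KO and 561 to 571 FPKM in WT co-cultures with the inhibitor, above the co-cultures without it and below hepatocytes alone. The macrophage list summed to 4.01 to 4.78 FPKM in KO and 4.39 to 5.75 FPKM in WT co-cultures with the inhibitor, against 0.9498 to 1.58 FPKM in co-cultures without it. The part of these measures in the changes of the 7 genes was not tested.

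Between KO and WT cancer cells, 2 of these genes were called with the inhibitor and 1 without it, all by small steps. With the inhibitor, Glul and Gpt2 were higher with KO than with WT cells, 2 of 7 genes, beside 2.31% of all genes tested (1.66% higher and 0.649% lower). Glul had 99.7 to 122 FPKM in the 4 KO co-cultures with the inhibitor and 86.1 to 92.1 FPKM in the 3 WT co-cultures with it, which do not overlap (log2 fold change 0.32 ± 0.06; limma, adjusted p = 0.00954). The KO libraries spread more widely, at an SD of 10.6 FPKM against 3.02 FPKM in WT. Gpt2 had 40.3 to 44.2 FPKM in KO co-cultures with the inhibitor and 35.1 to 36.5 FPKM in WT co-cultures with it (log2 fold change 0.23 ± 0.05; limma, adjusted p = 0.0158). Glud1 also did not overlap, at 171 to 179 FPKM in KO against 166 to 167 FPKM in WT, but its log2 fold change of 0.08 ± 0.03 did not pass the test (limma, adjusted p = 0.383). With the compared libraries alone the Glul call was lost (limma, adjusted p = 0.0712). Both calls also depended on single libraries. Without WT inhibitor replicate 1, Glul had an adjusted p of 0.0568 and Gpt2 of 0.0554 (limma). Gpt2 also lost its call without WT inhibitor replicate 2 (adjusted p = 0.0784) or 3 (0.0585) and without KO inhibitor replicate 1 or 2 (limma, adjusted p = 0.0559 each).

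Without the inhibitor, Got2 was the 1 gene of 7 called between KO and WT co-cultures, beside 2.99% of all genes tested (1.65% higher and 1.34% lower). It had 27.5, 28.5 and 27.8 FPKM in KO co-cultures against 25.6, 25.2 and 25.1 FPKM in WT co-cultures, a log2 fold change of 0.14 ± 0.03 (limma, adjusted p = 0.0295). The call did not hold under quantile normalization, under scaling without mitochondrial and the most abundant genes, with the compared libraries alone, or without any one of WT replicates 2 and 3 and KO replicates 1, 2 and 3, where the adjusted p was between 0.0632 and 0.385 and the log2 fold change between 0.12 and 0.15. Without WT co-culture replicate 1, the library that stood apart, the call held (log2 fold change 0.15; limma, adjusted p = 0.0296). Gpt2 had 25.6 to 27.1 FPKM in KO against 22.3 to 24.0 FPKM in WT co-cultures without overlap, and a log2 fold change of 0.16 ± 0.05 that was not called (limma, adjusted p = 0.115). Of all calls between KO and WT co-cultures 55.1% were higher in KO, and 43.8% when scaling left out mitochondrial and the most abundant genes.

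Whether the inhibitor acted differently by genotype was tested as the difference between its effects with KO and with WT cells. By limma, 0 of 7 genes were called, beside 0.816% of all genes tested, and 2 of 7 had an unadjusted p below 0.05. On recovered fragments with voom the count was also 0. Glul had the largest difference, 0.30 ± 0.08 on the log2 scale (limma, adjusted p = 0.143), and Got2 had -0.11 ± 0.04 (adjusted p = 0.349). So the Glul change called with KO against WT cells in the presence of the inhibitor is not shown to differ from that in its absence. Of all genes called for this difference, 65.6% had a positive value, a change more positive or less negative with KO cells, and 77.3% when scaling left out mitochondrial and the most abundant genes.

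The order of the 5 group means differed between the genes. Gpt2 and Gpt ran from KO with inhibitor through WT with inhibitor, KO and WT down to hepatocytes alone, with highest over lowest of 3.21 and 1.45. For Gpt, the neighbours KO and WT with inhibitor, KO and WT without it, and WT and hepatocytes alone overlapped and were not called apart. For Gpt2, KO and WT without inhibitor did not overlap but were not called apart. Glul had the same top 2, but hepatocytes alone came next and WT co-cultures last, at 3.18-fold from top to bottom, and KO and WT without inhibitor overlapped. Glud1 and Got2 both ran from hepatocytes alone through KO and WT with inhibitor to KO and WT without it, over 2.39-fold and 1.32-fold. Of these, KO and WT with inhibitor were not called apart for either gene, nor KO and WT without it for Glud1. Got1 had hepatocytes alone at the bottom and WT and KO co-cultures without inhibitor at the top, over 2.41-fold, and KO and WT overlapped both with and without inhibitor. Gls2 fell into an upper set of 3 overlapping groups and a lower set of 2, over 3.81-fold. Across the 16 libraries, Glud1 and Gls2 had a Pearson r of 0.96 on log2(FPKM + 1), Glud1 and Got1 of -0.95, and Gpt and Gpt2 of 0.82. These correlations are descriptions over 16 libraries of 5 groups, and they mostly restate the group means.

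Ratios within a library remove its scaling and set the paired enzymes against each other. Mitochondrial Gpt2 over cytosolic Gpt was 5.04 ± 0.33 in KO co-cultures with the inhibitor, 4.43 ± 0.07 in WT co-cultures with it, 4.06 ± 0.29 in KO and 3.97 ± 0.71 in WT co-cultures without it, and 2.28 ± 0.21 in hepatocytes alone (SD, n = 4 for the first and 3 for each other). Mitochondrial Got2 over cytosolic Got1 was 0.467 ± 0.015, 0.470 ± 0.015, 0.278 ± 0.006, 0.243 ± 0.005 and 0.772 ± 0.027 in the same order. The balance of the AST genes thus lay lowest in co-cultures without the inhibitor and highest in hepatocytes alone, while that of the ALT genes was lowest in hepatocytes alone. Gls2 over Glul was 0.0215 ± 0.0031, 0.0279 ± 0.0072, 0.0185 ± 0.0015, 0.0188 ± 0.0053 and 0.0449 ± 0.0074, so glutaminase was well below glutamine synthetase in every group.

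**Figure D3:**
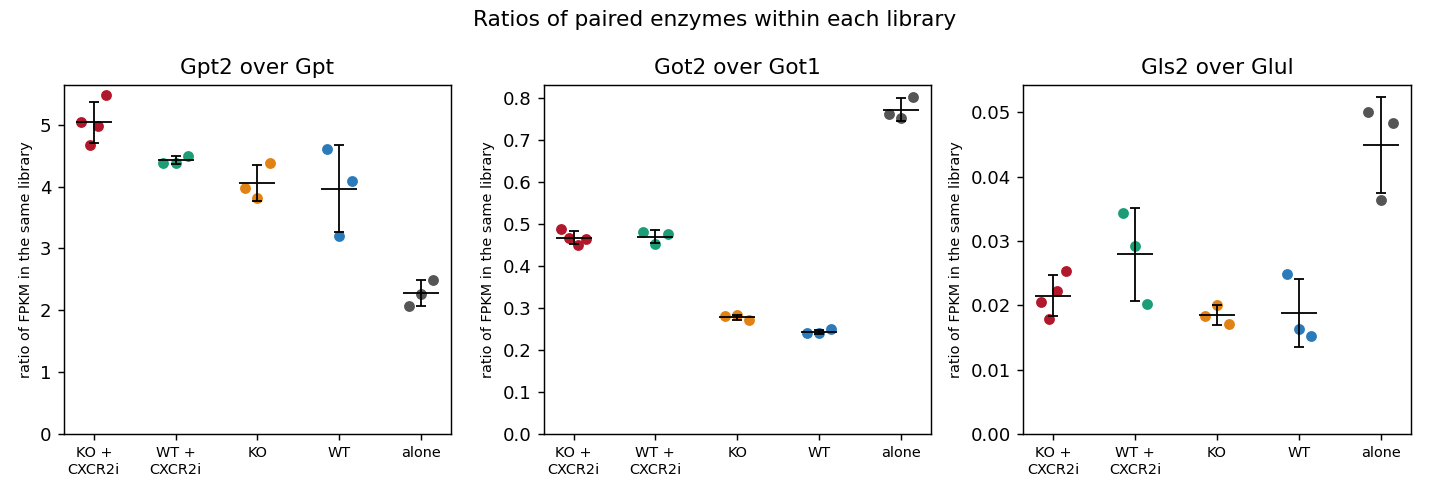
Ratio of the FPKM of 2 genes in the same library (y axis, from 0) for Gpt2 over Gpt, Got2 over Got1 and Gls2 over Glul, by group (x axis); points are libraries, and the lines are the group mean ± SD (n = 4 for KO + CXCR2i, n = 3 for each other group). Got2 over Got1 is 0.240 to 0.283 in the 6 co-cultures without inhibitor and 0.451 to 0.487 in the 7 with it.

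These ratios were tested on the log2 scale with two-sided exact permutation tests, 9 in all. Inhibitor and genotype labels were permuted within the other factor. For co-culture, labels were permuted over the 6 co-culture libraries without inhibitor and the 3 of hepatocytes alone, without strata. Each value is the difference between the means over all libraries of the 2 labels. Got2 over Got1 was higher with the inhibitor by 0.85 (exact permutation p = 0.00143, the smallest of 700 permutations; 0.0129 adjusted over the 9) and lower in co-culture than in hepatocytes alone, at a difference of -1.57 (exact p = 0.0119, the smallest of 84; 0.0214 adjusted). Gpt2 over Gpt was higher with the inhibitor by 0.26 (exact permutation p = 0.00571; 0.0214 adjusted) and higher in co-culture by 0.81 (exact p = 0.0119; 0.0214 adjusted). Gls2 over Glul was lower in co-culture than in hepatocytes alone, at a difference of -1.13 (exact permutation p = 0.0119; 0.0214 adjusted), and its difference with the inhibitor was 0.22 (exact p = 0.18). That last value turns to -0.45 (exact p = 0.00429) with a pseudocount of 1 in place of 0.1, so no direction can be given. By genotype, Got2 over Got1 was 0.15 higher with KO cells (exact permutation p = 0.0343; 0.0514 adjusted). That value takes 4 of 7 KO but 3 of 6 WT libraries from cultures with the inhibitor, in which the ratio was higher. Within treatment, KO minus WT was -0.01 with the inhibitor and 0.19 without it, and the mean of both, an alternative chosen after seeing the data, was 0.093 (exact permutation p = 0.06), so no genotype difference is reported for this ratio. Gpt2 over Gpt by genotype was 0.14 (exact permutation p = 0.111). The mean of its differences within treatment was 0.12 (exact permutation p = 0.186), and 0.17 without WT co-culture replicate 1 (exact p = 0.0257). Gls2 over Glul by genotype was -0.17 (exact p = 0.299).

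The genes of similar pattern were taken as the 3 protein-coding genes with the highest Pearson r of log2(FPKM + 1) over the 16 libraries. For Glul they were Aldh1a7 and Atp7b (0.994 each) and Tns1 (0.992). For Glud1 they were Plk2, Chmp4c and Nfkbia (0.997 each), where Nfkbia encodes the NF-kB inhibitor IkB-alpha. Nfkbia averaged 46.5 FPKM in KO and 40.5 FPKM in WT co-cultures with the inhibitor, 8.88 FPKM in KO and 8.17 FPKM in WT co-cultures without it, and 67.4 FPKM in hepatocytes alone. For Got1 they were Pdia4 and Areg (0.995 each) and Pycr1 (0.994), of which Pdia4 encodes an endoplasmic reticulum chaperone, Areg an EGF receptor ligand and Pycr1 an enzyme of proline synthesis from glutamate. For Gpt2 they were C4b (0.995), Slc39a14 (0.994), a zinc and iron carrier, and Fetub (0.993). C4b, a complement component, averaged 52.7 FPKM in KO and 44.9 FPKM in WT co-cultures with the inhibitor, 26.8 FPKM in KO and 22.2 FPKM in WT co-cultures without it, and 9.47 FPKM in hepatocytes alone. Gls2 went with Cdk6, Hspa14 and Myl12a (0.972 to 0.977), Got2 with Lbp, Tmem2 and ccdc198, spelled as in the table (0.970 to 0.972), and Gpt with Tmem191c, Leng9 and Zfp629 (0.946 to 0.964).

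Related genes were counted in lists by role, some of which share genes. The lists were also chosen with earlier results of these data known, so their counts are descriptions. Of 12 other aminotransferases 7 were tested. Counts in this and the following lists stand beside shares over all genes tested of 33.5 to 34.8% higher and 33.0 to 34.7% lower with the inhibitor, and of 30.1 to 30.3% higher and 31.2 to 31.9% lower in co-culture, where the median log2 fold change over all genes was -0.01 and 0.01. With the inhibitor, 5 of the 7 rose and 1 fell with KO cells and 4 rose and 1 fell with WT cells. Of these, Tat, Aadat and Abat averaged under 1 FPKM in every group without inhibitor and passed the filter through the groups in which they were higher. Of the other 4 genes, 2 rose and 1 fell with KO cells and 1 rose and 1 fell with WT cells, at medians of 0.14 and 0.01. Tat, which starts tyrosine breakdown, averaged 13.5 FPKM in KO co-cultures with the inhibitor against 0.0982 FPKM without it (log2 fold change 3.72 ± 0.08), and 9.65 FPKM in WT co-cultures with it against 0.1001 FPKM without it (3.27 ± 0.09). Kyat3, a kynurenine aminotransferase, rose by 2.63 ± 0.05 with KO cells and 2.52 ± 0.06 with WT cells on the log2 scale. In co-culture without inhibitor, 3 of the 7 rose and 2 fell against hepatocytes alone with either genotype. The medians were 0.10 with KO and 0.06 with WT cells. Of the 4 genes left without Tat, Aadat and Abat, 3 rose and 1 fell with either genotype, at medians of 0.52 and 0.62. Kyat1 was among those that rose, at 4.02 FPKM in KO and 3.78 FPKM in WT co-cultures against 1.68 FPKM in hepatocytes alone. Of the 7, Tat was called higher with KO than with WT cells in the presence of the inhibitor, by 0.44 ± 0.08. In that comparison 1.66% of all genes tested were called higher.

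Of 13 other glutamate-forming and glutamate-using enzymes 8 were tested, and with the inhibitor 7 rose and 1 fell with KO and with WT cells, at medians of 0.88 and 0.74. Without Cps1, 6 rose and 1 fell with either genotype, at medians of 0.74 and 0.68. Cps1, which captures ammonia for the urea cycle and passed the filter through the groups with the inhibitor, averaged 16.4 FPKM in KO co-cultures with the inhibitor against 0.262 FPKM without it, and 10.7 FPKM in WT co-cultures with it against 0.0975 FPKM without it. Prodh, which starts proline breakdown towards glutamate, rose by 1.56 ± 0.08 with KO and 1.33 ± 0.08 with WT cells. Gclc, which joins glutamate to cysteine for glutathione, rose by 1.35 ± 0.06 with KO and 1.24 ± 0.06 with WT cells. In co-culture without the inhibitor, Aldh18a1, which commits glutamate to proline synthesis, averaged 70.3 FPKM with KO and 76.1 FPKM with WT cells against 21.7 FPKM in hepatocytes alone. Gclc stood at 123 FPKM with KO and 121 FPKM with WT cells against 204 FPKM in hepatocytes alone. With KO cells 3 of the 8 rose and 4 fell against hepatocytes alone, and with WT cells 3 rose and 3 fell, at medians of -0.08 and -0.12. Prodh and Cps1 averaged under 1 FPKM in hepatocytes alone. Of the other 6, 2 rose and 4 fell with KO and 2 rose and 3 fell with WT cells. Their medians were -0.37 and -0.38.

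Of 10 enzymes that use the amide nitrogen of glutamine 9 were tested, and 3 rose and 5 fell in KO and in WT co-cultures against hepatocytes alone, at medians of -0.17 and -0.22. Asns, asparagine synthetase, averaged 141 FPKM with KO and 145 FPKM with WT cells against 63.1 FPKM in hepatocytes alone. Gfpt1, the entry enzyme of hexosamine synthesis, rose by 1.56 ± 0.06 with KO and 1.55 ± 0.06 with WT cells, and Ctps, a CTP synthase, fell by 1.21 ± 0.06 with KO and by 1.10 ± 0.06 with WT cells on the log2 scale. With the inhibitor 4 rose and 3 fell with either genotype, at medians of 0.06 with KO and 0.05 with WT cells. The changes of these 3 genes with the inhibitor were, for Asns, -0.77 ± 0.04 with KO and -0.80 ± 0.05 with WT cells, for Gfpt1 -0.97 ± 0.05 and -0.85 ± 0.06, and for Ctps 0.77 ± 0.06 and 0.64 ± 0.06.

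Of 18 glutamine and glutamate carriers 8 were tested. In co-culture 6 rose against hepatocytes alone with either genotype, while 2 fell with KO and 1 with WT cells, at medians of 0.47 and 0.60. Without Slc7a11, which averaged under 1 FPKM in hepatocytes alone, 5 of 7 rose with either genotype, at medians of 0.39 and 0.51. The cystine and glutamate exchanger Slc7a11 averaged 3.60 FPKM with KO and 4.46 FPKM with WT cells against 0.573 FPKM in hepatocytes alone, and the lysosomal glutamine carrier Slc38a7 averaged 28.1 and 29.9 FPKM against 12.7 FPKM. With the inhibitor 3 rose and 5 fell with either genotype, at medians of -0.31 with KO and -0.39 with WT cells. Slc38a3, the liver system N glutamine carrier, averaged 16.8 FPKM in KO co-cultures with the inhibitor against 4.70 FPKM without it, and 13.4 FPKM in WT co-cultures with it against 5.67 FPKM without it. Its inhibitor effect differed by genotype, by 0.53 ± 0.10 on the log2 scale (limma, adjusted p = 0.0361). Of the 5 other malate-aspartate shuttle genes, whose cycle also uses Got1 and Got2, 3 fell in co-culture with either genotype and 2 did not pass the test, at medians of -0.19 with KO and -0.24 with WT cells. Slc25a13, the liver aspartate and glutamate carrier, fell by 0.44 ± 0.06 with KO and by 0.52 ± 0.06 with WT cells. With the inhibitor 2 of the 5 rose and 3 fell, at medians of -0.20 with either genotype, the malate carrier Slc25a11 by -0.52 ± 0.04 with KO and -0.61 ± 0.05 with WT cells.

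Zonation genes were counted beside Glul and Gls2. Of 18 pericentral genes 7 were tested, and 1 rose and 4 fell in co-culture with either genotype, at medians of -0.16 with KO and -0.20 with WT cells. Lect2, a secreted target of beta-catenin, averaged 0.472 FPKM with KO and 0.507 FPKM with WT cells against 13.9 FPKM in hepatocytes alone, and 6.42 FPKM in KO and 5.95 FPKM in WT co-cultures with the inhibitor. With the inhibitor 4 rose and 3 fell with KO cells and 3 rose and 3 fell with WT cells, at medians of 0.16 and 0.02. Of the 7, Cyp1a2 and Lect2 averaged under 1 FPKM in co-culture without the inhibitor, as did Tcf7 in KO co-cultures with it. Of the genes at 1 FPKM or more in both groups compared, 2 rose and 2 fell with KO cells, at a median of -0.06. With WT cells 1 of such genes rose and 3 fell, at a median of -0.18. Tcf7, a Wnt-responsive transcription factor, was among the 7 genes tested that fell with the inhibitor, down by -1.72 ± 0.10 and -1.70 ± 0.11. Of 15 periportal genes 8 were tested, and 6 rose and 1 fell with the inhibitor with either genotype, at median log2 fold changes of 1.89 with KO and 2.01 with WT cells. Without Cps1, which averaged under 1 FPKM in each group without inhibitor, these medians were 1.69 and 1.68. Ass1, a urea cycle enzyme, averaged 28.4 FPKM in KO co-cultures with the inhibitor against 2.72 FPKM without it, and 31.2 FPKM in WT co-cultures with it against 3.10 FPKM without it. In co-culture without the inhibitor, 1 of the 8 rose and 3 fell with KO cells and 2 rose and 3 fell with WT cells against hepatocytes alone. The medians were -0.13 with either genotype, and -0.14 with KO and -0.12 with WT cells when Cps1 was left out. With the inhibitor 4 of these 8 were higher with KO than with WT cells, beside 1.66% of all genes tested. Alb was among them, at 461 against 335 FPKM.

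**Figure D4:**
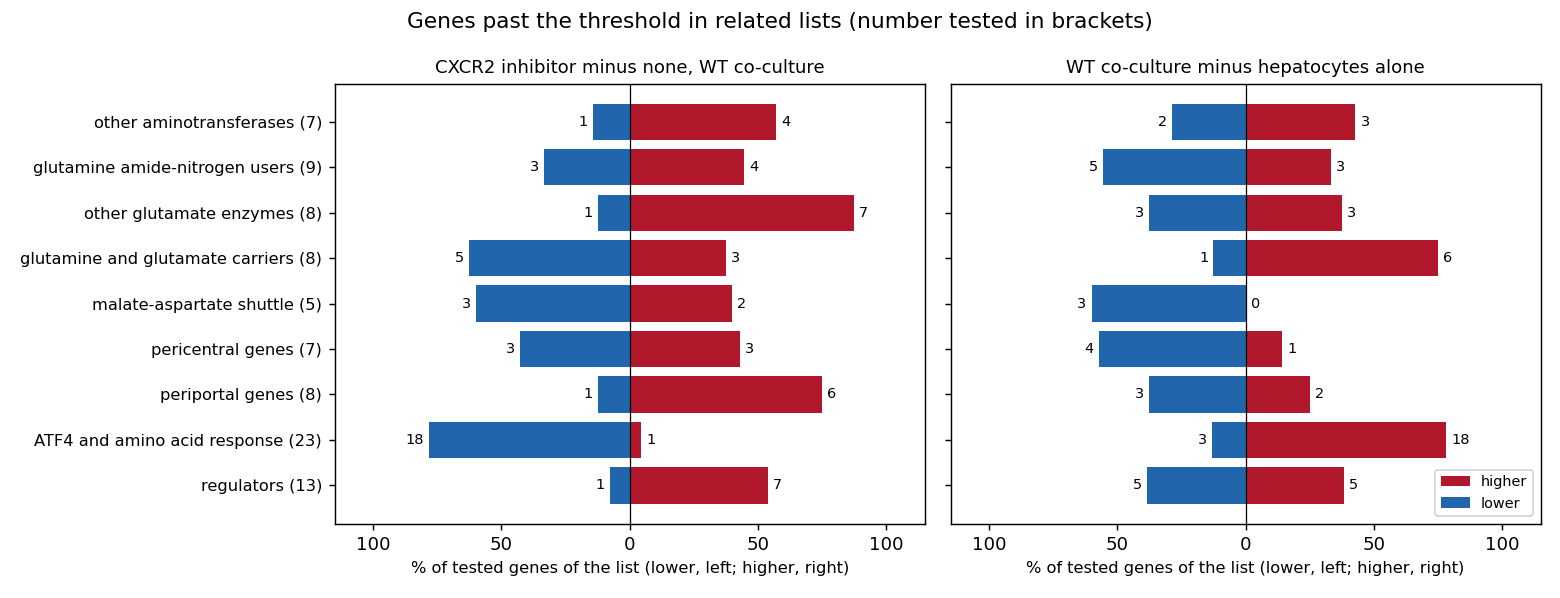
Share of the tested genes of each list (x axis, %, lower to the left and higher to the right) that passed an adjusted p of 0.05 by limma, for the inhibitor in WT co-culture and for WT co-culture against hepatocytes alone; numbers beside the bars are counts of genes, and brackets give the genes tested. In the ATF4 list 18 of 23 genes are lower with the inhibitor and 18 of 23 are higher in co-culture.

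The ATF4 and amino acid response list, to which Asns, Aldh18a1 and Slc7a11 also belong, was counted beside Got1. Of 24 genes 23 were tested, and 18 rose and 3 fell in co-culture with either genotype, at median log2 fold changes of 1.43 with KO and 1.56 with WT cells beside 0.01 over all genes tested in each. Slc7a11 and Aldh1l2 averaged under 1 FPKM in hepatocytes alone and passed the filter through the groups in which they were higher. Of the other 21 genes, 16 rose and 3 fell with either genotype, at medians of 1.35 and 1.39. Trib3, a pseudokinase induced by ATF4, averaged 165 FPKM with KO and 154 FPKM with WT cells against 13.3 FPKM in hepatocytes alone. Cth, which makes cysteine from cystathionine, averaged 38.4 FPKM with KO and 42.9 FPKM with WT cells against 6.39 FPKM in hepatocytes alone. With the inhibitor 18 of the 23 fell with either genotype, and 2 rose with KO and 1 with WT cells, at medians of -0.57 and -0.79. The inhibitor effect differed by genotype for 2 of the 23, both more positive with KO cells, beside 0.535% of all genes tested. They were Atf3, by 1.22 ± 0.08 (limma, adjusted p = 4.30e-06), and Sesn2, by 0.29 ± 0.06 (adjusted p = 0.0491).

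Of 14 hormone and nuclear regulators 13 were tested, and with the inhibitor 10 rose and 1 fell with KO cells and 7 rose and 1 fell with WT cells, at medians of 0.33 and 0.31. Creb3l3 averaged under 1 FPKM in each group without inhibitor and passed the filter through the groups in which it was higher. Of the other 12, 9 rose and 1 fell with KO and 6 rose and 1 fell with WT cells. Their medians were 0.33 and 0.21. Nr1h4, the bile acid receptor, averaged 64.1 FPKM in KO co-cultures with the inhibitor against 15.1 FPKM without it, and 52.6 FPKM in WT co-cultures with it against 12.97 FPKM without it. Ppara, the fatty acid receptor, rose by 1.76 ± 0.09 with KO and 1.51 ± 0.10 with WT cells. In co-culture without the inhibitor 4 rose and 6 fell with KO cells and 5 rose and 5 fell with WT cells against hepatocytes alone, at medians of -0.06 and 0.09. Klf15, a regulator of amino acid breakdown in liver, was 39.5 FPKM with KO and 35.0 FPKM with WT cells against 11.5 FPKM in hepatocytes alone. Hnf4a was lower with KO than with WT cells without the inhibitor, at 41.0 ± 1.92 against 49.8 ± 2.75 FPKM (SD, n = 3 each; limma, log2 fold change -0.27 ± 0.04, adjusted p = 0.00322). With the inhibitor the order of the means was reversed, at 73.8 ± 1.19 FPKM with KO and 69.1 ± 1.71 FPKM with WT cells. Its inhibitor effect differed by genotype, by 0.37 ± 0.06 on the log2 scale (limma, adjusted p = 0.0103).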

How the data were processed

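RNA from the 16 libraries was extracted with the RNeasy mini kit, per the labels' protocols, and reads were aligned with HISAT2 to GRCm38 (mm10), per the submitters' processing notes; neither names the version, the counting tool or the use of strand. The deposited values are FPKM per gene and library, computed by the authors without pooling replicates. Multiplied by gene length they were whole multiples of 1 step for 100% of values (within 0.1), which gave fragments. Gene names were used as deposited, 27 of them turned into dates.

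Groups came from the sample labels. limma 3.58.1 in R 4.3.3 was fitted to log2(FPKM + 1) with 5 group means, 11 residual degrees of freedom and an intensity trend, for the 11395 genes whose mean over the libraries reached 1 FPKM. The 9 comparisons, two-sided, were adjusted by Benjamini-Hochberg over all genes tested, with a threshold of 0.05. The code was checked on simulated data. Ratios used log2 of FPKM with a pseudocount of 0.1. Same-numbered libraries deviated together in no clear way (30 pairs, r from -0.300 to 0.270, median 0.0104), so no block was used. The 7 genes are always named, with the 3 most similar genes each, and per list and comparison at most the 3 called genes with the largest change. The members and lists were chosen with earlier results of these data known. Alternatives covered pseudocount, filter, scaling, voom on recovered fragments, the libraries fitted, a replicate block and leaving out each library. PCR copies are not marked, and fragment numbers give the counting error alone.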

Additional observations from a re-analysis of the deposited data

How the results depend on the processing

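Of the 41 member changes called in the comparisons, each refitted under 24 alternatives, 963 of 984 refits kept direction and call, 21 lost the call and 0 changed direction; the 26 calls of co-culture without the inhibitor against hepatocytes alone and of the inhibitor against none kept theirs in all 624. The count of members called between KO and WT co-cultures, 1, became 0 under quantile normalization, under scaling without mitochondrial and the 50 most abundant genes, with the compared libraries alone and with the replicate block (Got2 0.14, limma adjusted p = 0.0658), and was 0 to 1 when leaving out single libraries. With the inhibitor the 2 members called became 1 with the compared libraries alone, where Glul had an adjusted p of 0.0712 by limma, and 0 to 2 when leaving out libraries. Beyond Got2, the replicate block changed no other member call. Over all genes, the 341 calls between KO and WT became 17 with the compared libraries alone and 157 to 398 when leaving out libraries, and the 263 calls with the inhibitor became 123 to 371. The 93 calls for a difference of the inhibitor effect by genotype became 55 without a filter, 41 with the compared libraries alone, 34 with the replicate block and 31 to 120 when leaving out libraries. Got2 against hepatocytes alone with KO cells and inhibitor lost its call on recovered fragments (-0.07, limma with voom, adjusted p = 0.072). Sign changes touched only values near 0 that were not called before or after. They were Gls2 between KO and WT (-0.0175 by quantile normalization, -0.00499 by the scaling above), Glul there (-0.000794 by that scaling), Gls2 with inhibitor against hepatocytes alone (KO 0.0254 and WT 0.0559 by that scaling, KO 0.00264 and WT 0.0558 with voom) and Gpt for the difference by genotype (0.00227 with the block). When leaving out libraries, uncalled log2 differences ran, for Gls2, from -0.0488 to 0.0817 between KO and WT, -0.181 to 0.0721 between them with the inhibitor, -0.184 to 0.0688 for the difference by genotype, and with the inhibitor against hepatocytes alone from -0.15 to 0.0132 (KO) and -0.12 to 0.137 (WT). They ran for Gpt from -0.062 to 0.118 in WT co-culture against hepatocytes alone, -0.00476 to 0.103 between KO and WT with the inhibitor and -0.152 to 0.0282 for the difference by genotype, for Glul from -0.0137 to 0.0383 and for Glud1 from -0.0186 to 0.0605 between KO and WT. By genotype the log2 ratio of Got2 over Got1 ran from 0.0475 to 0.249 and that of Gpt2 over Gpt from 0.0648 to 0.184. As the mean of the differences within treatment, chosen after seeing the data, that of Got2 over Got1 was 0.093 (exact permutation p = 0.06). Gls2 over Glul with the inhibitor turned to -0.45 with a pseudocount of 1, by construction, since Gls2 lies near or under that pseudocount. The causes of the other shifts were not tested. Depth limits Gls2 most, at 38 fragments in its lowest library.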
